A study of Mus musculus with 4 samples.

Results

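The 39 mouse Hox genes were followed on 4 two-colour expression arrays that set RNA of sorted odontoblasts, the cells that deposit dentin, against RNA of sorted osteoblasts, the cells that deposit bone. Members were all non-control probes whose gene name in the scanner files is Hoxa, Hoxb, Hoxc or Hoxd followed by a number. This rule found 44 probes for 39 genes, of 22609 named genes on the array, and the complete set of mouse cluster genes was present. Of the genes, 5 had 2 probes each, among them Hoxa9, Hoxa13, Hoxb3 and Hoxd11, and the probes of Hoxa11 and Hoxb1 were printed 10 times per array.

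Per the labels, the RNA in Cy5 came from dental pulp cells named primary odontoblast, and the RNA in Cy3 from calvaria bone cells named calvarial osteoblast. Both were taken from 2-week-old mice that carry EGFP under a 2.3 kb type I collagen promoter, and the strain is given as C57BL/6. Donors were matched between the tissues, cells were released by enzymes and sorted on GFP, and how many animals stand behind each array is not stated. The promoter is active in several collagen-making cell types, so the sort does not by itself define an odontoblast or an osteoblast. Both cell types carried the transgene, and no array had its dyes swapped. Replicate numbers 1 to 4 of the labels serve as array numbers. All arrays shared 1 slide and 1 scan. Because nothing states that they came from separate litters or cultures, p-values reflect only how these arrays vary, which may in part be technical.

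Hox genes encode homeodomain transcription factors that lie in 4 clusters, Hoxa to Hoxd. Within a cluster, paralogue numbers run from the 3′ end, whose genes act in the hindbrain and neck, to the 5′ end, whose genes act in the tail, the limbs and the genital tubercle. Textbook embryology describes the neural crest of the front of the head, which gives rise to the dental pulp and to part of the skull vault, as free of Hox expression, while the crest of the more posterior pharyngeal arches expresses the 3′ genes. The question asked of the arrays was which Hox probes gave signal in each channel, and in which direction their ratios lay.

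All ratios are log2 of Cy5 over Cy3, after normexp background correction with an offset of 50 and loess normalization. A ratio above 0 means that Cy5, labelled odontoblast, had more signal. The offset pulls ratios of dim probes towards 0. The direction is that of the dyes in the labels, and marker genes lay against it. Of 11 osteoblast markers, 4 were called higher in Cy5 and 0 in Cy3, among them Ifitm5, a small membrane protein of mineralizing osteoblasts, at 5.05 (limma adjusted p = 0.0167). Of 7 odontoblast markers, 3 were called higher in Cy3 and 0 in Cy5, and Dspp, the dentin matrix precursor, lay at -1.95 (limma adjusted p = 0.0603). Channels are therefore named by dye, and no Hox value is assigned to a cell type here.

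The sequences on the array show what was measured. Each probe is 60 bases long, and 30 of them are shown for the members on which the results turn, 5′ to 3′, with runs of at least 3 G in capitals. Coordinates are those of the whole probe in the files, on mm9, and the exon or untranslated region at each was not analysed here. The first group holds members with the highest ratios or with signal that differed between arrays. On chromosome 11 these were Hoxb2 (chr11:96215122-96215181, plus strand), Hoxb5 (chr11:96167130-96167189, plus strand) and Hoxb1 (chr11:96228450-96228510, plus strand). On chromosome 2 they were Hoxd3 (chr2:74585787-74585846, plus strand), Hoxd8 (chr2:74545171-74545230, plus strand) and Hoxd9 (chr2:74537676-74537735, plus strand). Hoxc4 lay at chr15:102867213-102867272 on the plus strand.
Hoxb1: ttgaattgaacttcctaagtaactGGGctt
Hoxb2: aataattaaactctagtGGGagaGGGtttt
Hoxb5: atggaatcagaaataatcctcagtgtaaaa
Hoxc4: cccgtgatcaataataaaccagtggctgtg
Hoxd3: tggtccttcatGGGtagagtcaggcagccc
Hoxd8: atcagcgctagatgattgaatataaaatgc
Hoxd9: agaaaccaagtggctttggagtcttgtcct

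The other group holds the 4 probes with a run of at least 4 G. They were Hoxa7 (chr6:52165626-52165685, minus strand), the brighter probe of Hoxb3 (chr11:96207114-96207173, plus strand), Hoxc5 and Hoxc10 (chr15:102801857-102801916, plus strand). The sequences of 3 of them are shown. Each of these 4 carried the software's mark of bright signal in Cy5 and in Cy3 on all 4 arrays.
Hoxa7: attgattttagttacaaaaatGGGGGGaaa
Hoxb3: aagtacaagaaagaccagaaggccaaGGGG
Hoxc10: ggaaagaaaGGGGGataatcaaacagagag

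Signals below are the scanner software's background-subtracted intensities, in scanner units, and can fall below 0. A probe was counted as detected in a channel when the software marked it as well above background there on at least 3 of 4 arrays. A probe printed several times took the mark of the majority of its spots. In Cy5 the median spot stood at 7.1 to 8.21 times its local background, and in Cy3 at 10.9 to 16 times. Of 308 negative control spots per array, 0.325% to 1.95% carried the mark. Probes for olfactory receptors (Olfr genes), a family with no known part in mineralized matrix, served as a low reference.

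By this rule Hox probes were marked at a lower share than the array as a whole, and at a higher share in Cy5 than in Cy3. In Cy5, 25 of 44 probes (56.8%) were detected, beside 77.6% of all probes and 45.6% of 1198 Olfr probes. In Cy3 the count was 19 of 44 (43.2%), beside 72.9% of all probes and 36.1% of Olfr probes. By gene, 23 of 39 were detected in Cy5 (59%) and 17 in Cy3 (43.6%), beside 81.5% and 77.3% of all named genes. The gap between the channels depends on the rule, and with signal above the 95th percentile of the negative control spots 32 genes were detected in Cy5 and 31 in Cy3. With the software's other flag, for positive and significant signal, 72.7% of Hox and 72.6% of Olfr probes were detected in Cy5, and 61.4% and 61.7% in Cy3. The mark of bright signal was thus set for a large share of the Olfr probes too, and it does not by itself show expression. Per array, 26 to 32 Hox probes were marked in Cy5 and 17 to 21 in Cy3, and Cy5 had the higher count on all 4 arrays. The same held on all 4 arrays for all probes and for Olfr probes. Shares of all probes were 75.5% to 85.2% in Cy5 and 67.8% to 80.9% in Cy3. Shares of Olfr probes were 40.9% to 56.5% and 34.6% to 45.3%. In bulk RNA, fewer cells that express a gene and less RNA per cell cannot be told apart.

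**Figure D1:**
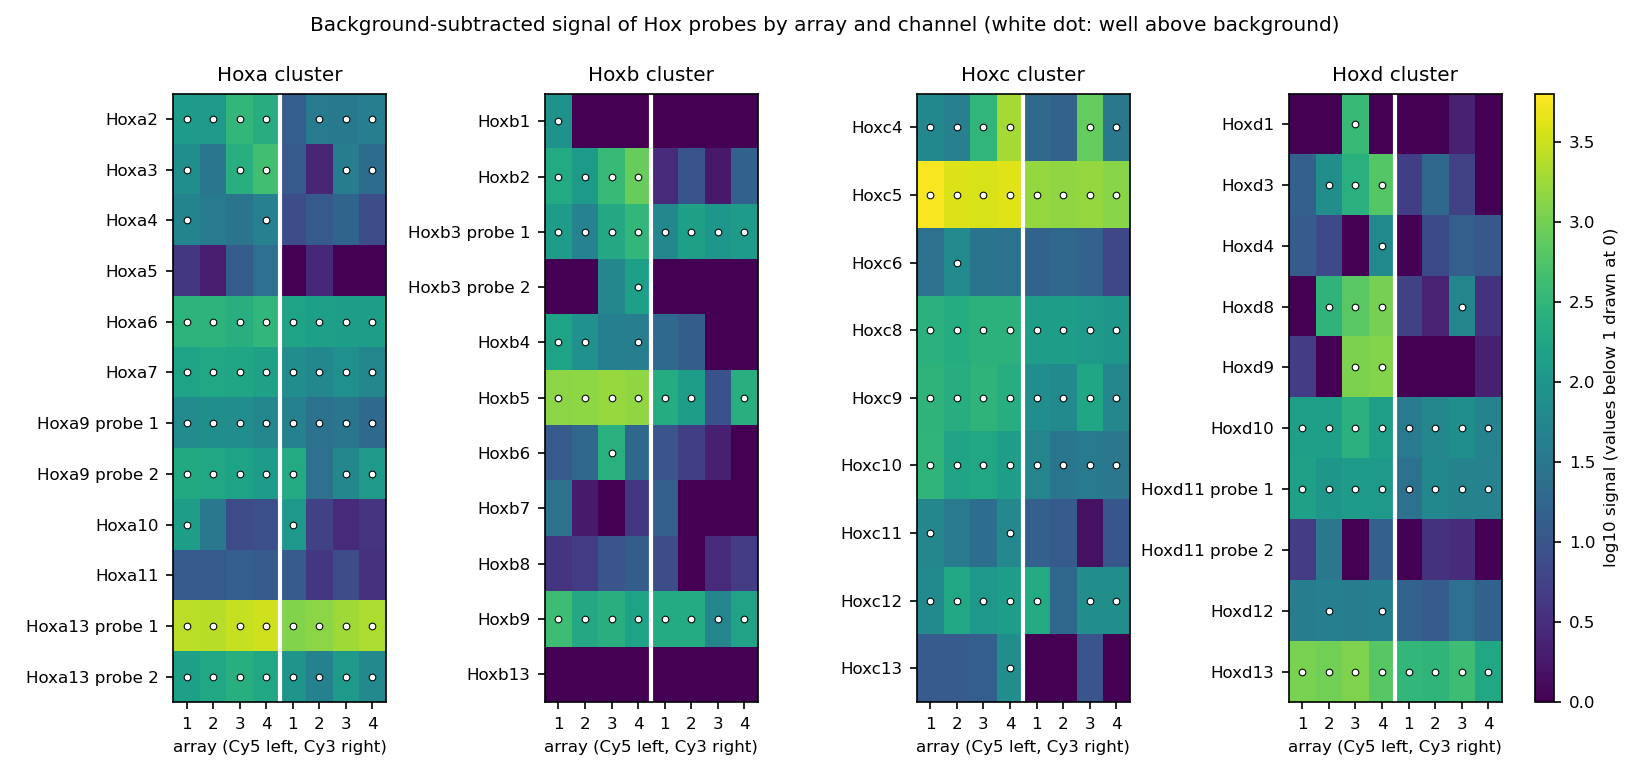
Background-subtracted signal of each of 42 Hox probes (rows, ordered by paralogue number) on arrays 1 to 4 in Cy5 and in Cy3 (columns), on a log10 colour scale with signals below 1 drawn at 0, and a white dot where the probe was well above background. Of the probes drawn, dots fill both channels for 14 probes, 6 probes have none, and 14 have dots in Cy5 alone.

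The channels were not marked alike. Of the 44 probes, 19 (43.2%) were detected in both channels, 6 (13.6%) in Cy5 but not in Cy3, and 0 in Cy3 but not in Cy5. The shares of all probes with these patterns were 71.1%, 6.52% and 1.85%, and among the 1198 Olfr probes there were 418, 128 and 14. The 6 were Hoxa3, Hoxb2, Hoxb4, Hoxc4, Hoxd3 and Hoxd8. A looser pattern, a mark in Cy5 on at least 1 array and in Cy3 on none, held for 14 Hox probes (31.8%), beside 4.99% of all probes and 11.9% of Olfr probes. The reverse held for 0 Hox probes, beside 1.94% of all probes and 2.34% of Olfr probes. No test was made of these shares.

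Marks were also spread unevenly over the arrays. In Cy5, 12 Hox probes (27.3%) were marked on 1 or 2 arrays, beside 11.1% of all probes and 17.8% of Olfr probes. In Cy3 there were 4 such probes (9.09%), for Hoxa3, Hoxa10, Hoxc4 and Hoxd8, beside 12.7% and 17.7%. A further 7 probes were marked on no array in either channel (15.9%, beside 9.37% of all probes and 34.3% of Olfr probes). Among them were the probes of Hoxa5, Hoxa11, Hoxb7, Hoxb8 and Hoxb13 and the dimmer probe of Hoxd11.

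By cluster, Hoxa had 7 of 11 genes detected in Cy5 and 6 in Cy3. Hoxb had 5 of 10 in Cy5 and 3 in Cy3, Hoxc had 6 of 9 and 5, and Hoxd had 5 of 9 and 3. The median ratio was 0.01 over Hoxa, 0.22 over Hoxb, 0.26 over Hoxc and 0.29 over Hoxd probes. By paralogue number the marks of the channels parted at the 3′ end. The blocks were counted by this mark alone, and the gap between the channels depends on the rule. Of the 12 genes of paralogues 1 to 4, 8 were detected in Cy5 and 3 in Cy3. Of the 11 genes of paralogues 5 to 8, 6 were detected in Cy5 and 5 in Cy3. Of the 16 genes of paralogues 9 to 13, 9 were detected in Cy5 and the same 9 in Cy3. Median ratios followed this order, at 0.31, 0.12 and 0.02 over all probes of each block. The differences between the blocks were not tested.

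**Figure D2:**
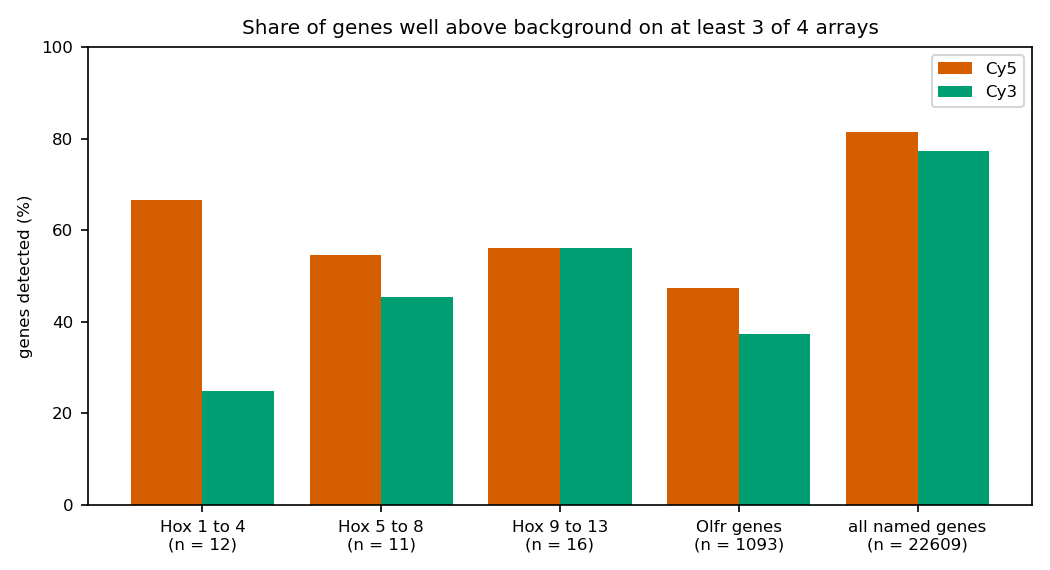
Bars give the percent of genes that were well above background on at least 3 of 4 arrays in Cy5 and in Cy3, for Hox genes of paralogues 1 to 4, 5 to 8 and 9 to 13, for Olfr genes and for all named genes, with the number of genes under each. Paralogues 1 to 4 stood at 66.7% in Cy5 and 25% in Cy3, while paralogues 9 to 13 stood at 56.2% in both.

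Ratios could be tested for the 23 genes that had a probe detected in at least 1 channel. limma called 0 of the 23 at an adjusted p under 0.05, beside 1.64% of 37406 features tested (0.997% higher in Cy5 and 0.644% higher in Cy3) and 2.2% of 18733 named genes tested (1.31% and 0.886%). At an unadjusted p under 0.05, 8 of the 23 were higher in Cy5 and 0 in Cy3, beside 10.1% and 8.87% of all features. Among 533 Olfr features tested, the unadjusted shares were 5.07% and 4.32%, with 0 called. The 8 were Hoxa2, Hoxa3, Hoxb2, Hoxb4, Hoxb5, Hoxc10, Hoxd8 and Hoxd13. The mean ratio lay above 0 for 16 of the 23 and below 0 for 7. It was above 0 on all 4 arrays for 10 of them (15.7% of all features, 21% of Olfr features) and below 0 on all 4 for 0 (14.8% and 10.5%). Because 6 of the 23 passed the filter through Cy5 alone, these counts lean to Cy5 by construction and support nothing by themselves. Of the 17 genes detected in both channels, 10 had a mean ratio above 0 and 7 below 0. At an unadjusted p under 0.05, 4 of the 17 leaned to Cy5 and 0 to Cy3. The share of all features detected in both channels that did so was not counted, so the 4 have no background beside them. Of the 4, Hoxa2 and Hoxb5 lacked a Cy3 mark on 1 array. A limma fit limited to features marked in both channels on all arrays held 14 Hox genes. There 2 of the 14 passed the unadjusted threshold towards Cy5 and 0 towards Cy3. The share of all features in that fit that did so was not counted either. At the adjusted threshold limma called 0 of the 14, beside 2.01% of the 29570 features in that fit. Over all 39 genes the median ratio was 0.15, with an SD of 0.0929 over the arrays, and over all genes it was 0.00. Loess and median centring of each array differ by over 0.1 in the median ratio of all features tested, which lay at 0.16 with centring. The median over all 39 Hox genes was 0.02 with centring. It includes the 16 genes that were too dim to be tested, so it cannot be set against the median of the features tested.

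**Figure D3:**
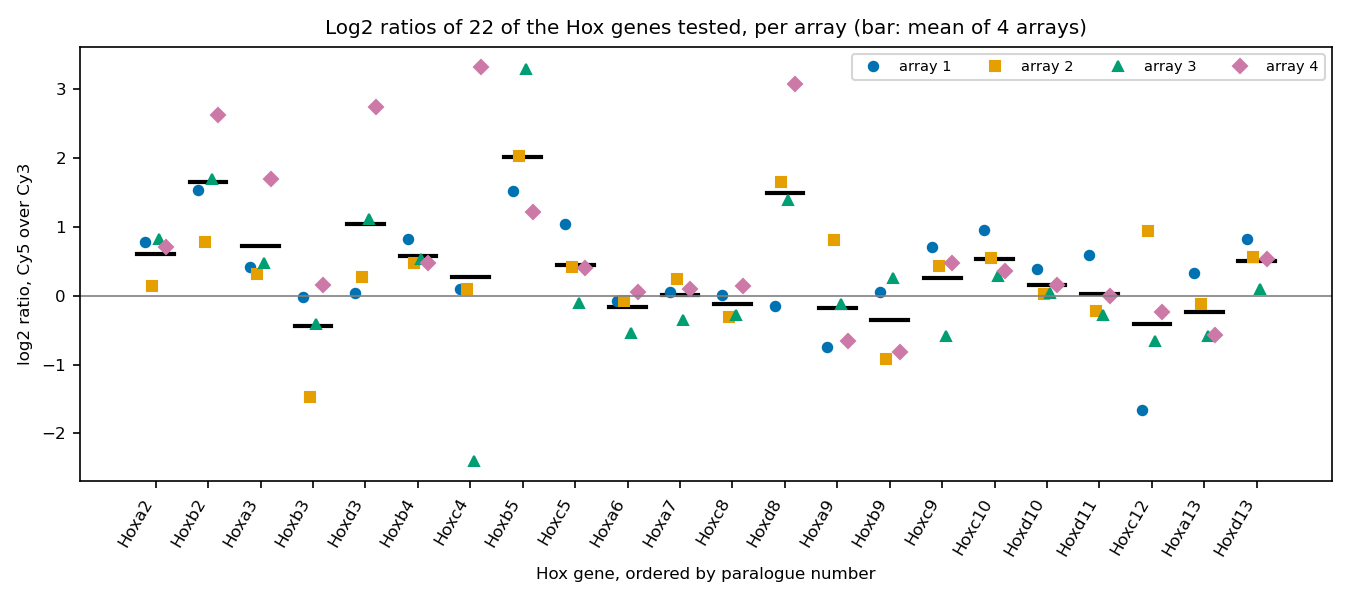
Points give the log2 ratio of Cy5 over Cy3 on each of 4 arrays and bars the mean, for 22 of the 23 Hox genes tested, ordered by paralogue number. Hoxb2, Hoxb5, Hoxd3 and Hoxd8 have means of at least 1, none has a mean of -1 or less, and Hoxc4 spans -2.41 to 3.33.

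Of paralogue group 2, Hoxa2, which sets the identity of the second pharyngeal arch, gave 128, 114, 325 and 234 in Cy5 and 13.5, 38.7, 34.6 and 41.8 in Cy3. It was marked in Cy5 on all arrays and in Cy3 on all but array 1. Its ratio was 0.61 ± 0.313 (SD, n = 4) and above 0 on all arrays, without passing the adjusted threshold (limma adjusted p = 0.194).

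Hoxb2, a regulator of hindbrain segments and their cranial nerves, gave 212, 117, 371 and 835 in Cy5. Its Cy3 signal was 2.88, 9.87, 1.79 and 15.1 and was marked on no array. The raw signals of the channels, which are not normalized between the dyes, did not overlap. The Cy5 signal was highest on array 4 and lowest on array 2. The fitted ratio was 1.65 ± 0.756 (SD, n = 4; limma adjusted p = 0.0866). With Cy3 marked on no array, a fold with a floor under Cy3 was taken, at 2.88, higher in Cy5. For this floored fold the normalized Cy5 mean was set against a Cy3 value on each array. That value was the higher of the probe's own Cy3 value and the lowest value among probes marked there. An unmarked signal can lie above that lowest value, so the floored fold is no firm lower limit. It carries no spread over the arrays, and without a dye swap it is open to dye bias.

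Paralogue group 3 acts in the third arch and the upper neck. Hoxa3, needed for the thymus and parathyroids, gave 77.3, 30.7, 253 and 439 in Cy5 and 11.7, 2.52, 38.8 and 21.9 in Cy3. Cy5 was marked on arrays 1, 3 and 4 and Cy3 on arrays 3 and 4. The ratio was 0.73 ± 0.65 (SD, n = 4; limma adjusted p = 0.261), and array 4 stood apart from the other arrays.

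Hoxd3, which patterns the uppermost vertebrae, gave 14.6, 76.0, 257 and 626 in Cy5 and 5.12, 19.3, 5.59 and -3.38 in Cy3. Cy5 was marked on arrays 2, 3 and 4 and Cy3 on no array. The Cy5 signal differed widely between arrays, with array 1 lowest and array 4 highest, and array 1 in Cy5 lay below array 2 in Cy3. Its ratio of 1.04 ± 1.22 (SD, n = 4) did not pass the threshold (limma adjusted p = 0.313), and the floored fold was 1.86.

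Hoxb3 went the other way at its brighter probe, one of the 4 with a long run of G. Its Cy5 signal was 122, 48.6, 198 and 329 and its Cy3 signal 57.1, 144, 97.6 and 125, all marked. The ratio was -0.44 ± 0.733 (SD, n = 4; limma adjusted p = 0.492), lowest at -1.48 on array 2. The dimmer Hoxb3 probe was marked in Cy5 on array 4 alone, at 139, and in Cy3 on no array, with a ratio of 0.35 ± 0.639 (SD, n = 4). The 2 probes thus differ in the sign of their mean ratio, and neither differs from 0 beyond the spread of the arrays.

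Of paralogue group 4, which patterns the neck, Hoxb4 gave 160, 84.7, 43.0 and 42.7 in Cy5 and 19.9, 13.4, -5.1 and 0.17 in Cy3. Cy5 was marked on arrays 1, 2 and 4 and Cy3 on no array, and the raw signals of the channels did not overlap. Its ratio was 0.58 ± 0.165 (SD, n = 4; limma adjusted p = 0.172), above 0 on all arrays, and the floored fold was 1.28.

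Hoxc4 had the most uneven ratios of the 23. Its Cy5 signal was 58.9, 45.9, 314 and 1925 and its Cy3 signal 20.2, 16.3, 799 and 33.1. Array 3 was bright in both channels and brighter in Cy3, whereas array 4 was bright in Cy5. The ratios were 0.09, 0.09, -2.41 and 3.33, with a mean of 0.28 and an SD of 2.35 (n = 4; limma adjusted p = 0.889). Only 0.612% of all features tested had an SD at least as large. Without array 4 the mean was -0.74, and without array 3 it was 1.17.

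In the middle of the clusters, Hoxb5, an axial patterning gene of the neck and shoulder level, gave 1359, 1444, 1623 and 1483 in Cy5. Its Cy3 signal was 228, 129, 8.92 and 248, marked on arrays 1, 2 and 4. Cy5 was even across the arrays and far above Cy3 on each, and array 3 was the low point of Cy3. The ratios were 1.53, 2.02, 3.29 and 1.22, with a mean of 2.02 ± 0.914 (SD, n = 4; limma adjusted p = 0.0788). Hoxb5 had the smallest adjusted p of the members and just missed the threshold. It was past it with median centring (limma adjusted p = 0.037) and with scale normalization between arrays (limma adjusted p = 0.0434). Median centring also raised the calls over all features from 614, of which 60.7% were higher in Cy5, to 2509, of which 84.1% were.

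Hoxd8 gave -2.72, 295, 674 and 1031 in Cy5 and 5.61, 2.31, 53.5 and 3.62 in Cy3. Cy5 was marked on arrays 2, 3 and 4, and Cy3 on array 3 alone. Array 1 showed no signal in either channel. The ratios were -0.15, 1.65, 1.39 and 3.07, with a mean of 1.49 ± 1.32 (SD, n = 4; limma adjusted p = 0.217).

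The other 4 detected genes of paralogues 5 to 8 had similar normalized levels in both channels and were marked in both on all arrays. Hoxc5 gave 5767, 4010, 3662 and 4082 in Cy5 and 1595, 1501, 1608 and 1328 in Cy3, with a ratio of 0.44 ± 0.473 (SD, n = 4; limma adjusted p = 0.373). Hoxa6 gave 288, 287, 240 and 326 in Cy5 and 159, 139, 129 and 130 in Cy3, with a ratio of -0.16 ± 0.262 (SD, n = 4; limma adjusted p = 0.671). These raw signals lie higher in Cy5 although the ratio is near 0, because loess removes the difference between the channels that most probes share.

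Hoxa7 gave 160, 184, 178 and 149 in Cy5 and 72.8, 58.4, 81.3 and 54.9 in Cy3, with a ratio of 0.01 ± 0.257 (SD, n = 4; limma adjusted p = 0.979). Hoxc8, which patterns the thoracic region, gave 270, 227, 272 and 280 in Cy5 and 137, 133, 112 and 104 in Cy3, with a ratio of -0.11 ± 0.222 (SD, n = 4; limma adjusted p = 0.757). For both genes the ratios of the arrays fell on either side of 0.

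At the 5′ end, Hoxa9 gave 202, 181, 162 and 120 in Cy5 and 214, 25.2, 57.1 and 111 in Cy3 at its brighter probe. Cy3 was not marked on array 2. Its ratio was -0.18 ± 0.713 (SD, n = 4; limma adjusted p = 0.779), and the dimmer probe, marked in both channels on all arrays, gave -0.11 ± 0.19 (SD, n = 4). The 2 probes of Hoxa9 gave like results.

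Hoxb9, a gene of rib patterning, gave 416, 196, 245 and 158 in Cy5 and 217, 216, 54.5 and 156 in Cy3. Its ratio was -0.36 ± 0.599 (SD, n = 4; limma adjusted p = 0.516), and 2 of its 4 ratios lay above 0. Hoxc9 gave 301, 233, 297 and 234 in Cy5 and 72.7, 66.5, 179 and 57.0 in Cy3. Its ratio was 0.25 ± 0.576 (SD, n = 4; limma adjusted p = 0.635), below 0 on array 3 alone.

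Among paralogues 10, Hoxc10, a lumbar and hindlimb gene, gave 302, 168, 184 and 132 in Cy5 and 54.4, 31.5, 36.0 and 32.2 in Cy3. Its ratio was 0.53 ± 0.3 (SD, n = 4; limma adjusted p = 0.228), above 0 on all arrays. Hoxd10, also a lumbar and hindlimb gene, gave 140, 140, 265 and 140 in Cy5 and 37.4, 56.3, 79.0 and 49.4 in Cy3. Its ratio was 0.15 ± 0.167 (SD, n = 4; limma adjusted p = 0.659). Array 3 was the brightest for Hoxd10 in both channels, and the ratio did not follow.

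Hoxd11, which shapes the forearm, gave 148, 104, 121 and 115 in Cy5 and 27.1, 59.6, 49.2 and 48.8 in Cy3 at its brighter probe, with a ratio of 0.02 ± 0.397 (SD, n = 4; limma adjusted p = 0.965). Its dimmer probe was marked on no array, with signals from -5.01 to 32.1. Hoxc12 gave 65.8, 186, 107.2 and 131 in Cy5 and 213, 18.3, 75.2 and 74.4 in Cy3, with a ratio of -0.41 ± 1.08 (SD, n = 4; limma adjusted p = 0.643). Its arrays ran from -1.66 on array 1 to 0.94 on array 2.

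Paralogue group 13 acts in the digits, the genital tubercle and the tail. Hoxa13 gave 2559, 2493, 2963 and 3331 in Cy5 and 1189, 1371, 1836 and 2137 in Cy3 at its brighter probe. Its ratio was -0.24 ± 0.432 (SD, n = 4; limma adjusted p = 0.599), and its dimmer probe gave 0.02 ± 0.359 (SD, n = 4), with both channels marked on all arrays for both probes. Hoxd13 gave 1092, 988, 1166 and 651 in Cy5 and 326, 310, 419 and 182 in Cy3. Its ratio was 0.50 ± 0.303 (SD, n = 4; limma adjusted p = 0.249), above 0 on all arrays.

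Of the Hox probes, 15 were marked in both channels on all 4 arrays (34.1%, beside 61.9% of all probes and 28.2% of Olfr probes). Their means ran from -0.44 to 0.53, with a median of 0.02, and 0 of the 15 reached a size of 1. Of all probes with these marks, 9.73% reached a size of 1, and of Olfr probes 3.25%. Among so few Hox probes a count of 0 lies near these shares, and the difference was not tested. Hoxc10 and Hoxd13, at 0.53 and 0.50, were above 0 on all 4 arrays. The tested Hox genes with a mean ratio of at least 1 (Hoxb2, Hoxb5, Hoxd3 and Hoxd8) all lacked a mark in Cy3 on at least 1 array.

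A further 16 genes had no probe detected in either channel and were not tested, and their mean ratios ran from -0.07 to 1.73 with a median of 0.09. For each cluster the one with the highest signal is given. Hoxd9 gave 4.84, -4.54, 1133 and 1226 in Cy5 and -8.38, -7.05, -0.21 and 2.18 in Cy3. It was marked in Cy5 on arrays 3 and 4, so that arrays 1 and 2 showed no signal and arrays 3 and 4 a strong one. Its ratios were 0.24, 0.21, 3.07 and 3.40. The floored fold over all 4 arrays, 2.42, includes arrays 1 and 2, where neither channel was marked, and is no lower limit. A mark in Cy5 on arrays 3 and 4 alone, a pattern set after these values were seen, was found for 0.67% of all probes and 0.417% of Olfr probes.

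Hoxb6 gave 12.1, 18.6, 257 and 19.2 in Cy5 and 10.1, 5.1, 2.14 and -1.29 in Cy3, marked on array 3 in Cy5 alone. Hoxa10 gave 134, 33.2, 7.26 and 8.48 in Cy5 and 107.2, 5.47, 2.92 and 3.78 in Cy3, marked on array 1 in both channels. Hoxc13, known for its role in hair, gave 12.5, 12.1, 13.5 and 73.2 in Cy5 and -4.18, -5.47, 10.2 and -1.65 in Cy3, marked on array 4 in Cy5 alone. Each of these genes thus rested on 1 array.

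Hoxb1, the gene of the fourth hindbrain segment, shows how firm such a signal can be within 1 array. It was printed 10 times, and on array 1 all 10 spots were marked in Cy5, with signals from 64.4 to 103. In Cy3 on array 1, and in both channels on arrays 2 to 4, 0 of its 10 spots were marked, and no spot exceeded 5.94. Hoxa11, printed as often and without a mark by the majority rule, had 1 or 2 of its 10 spots marked in a channel on arrays 1 and 3 and 0 on arrays 2 and 4. Its median signal was 5.39 to 15.0 in Cy5 and 3.26 to 9.61 in Cy3.

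Hoxd1 gave 377 in Cy5 on array 3, and its other signals lay between -7.65 and 2.27. Of the remaining members, Hoxd12 and Hoxc11 were marked in Cy5 on 2 arrays, Hoxa4 also on 2, and Hoxc6 and Hoxd4 on 1, with no mark in Cy3. Hoxd3, Hoxd8 and Hoxd9, which are close neighbours on chromosome 2, were all marked in Cy5 on arrays 3 and 4 and not on array 1. This pattern held for 3 of 44 Hox probes (6.82%), beside 1.8% of all probes and 1.17% of Olfr probes. It was set after these values were seen, so the shares support nothing by themselves. Hoxd4, which lies between Hoxd3 and Hoxd8 in the files' coordinates, was marked on array 4 alone.

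**Figure D4:**
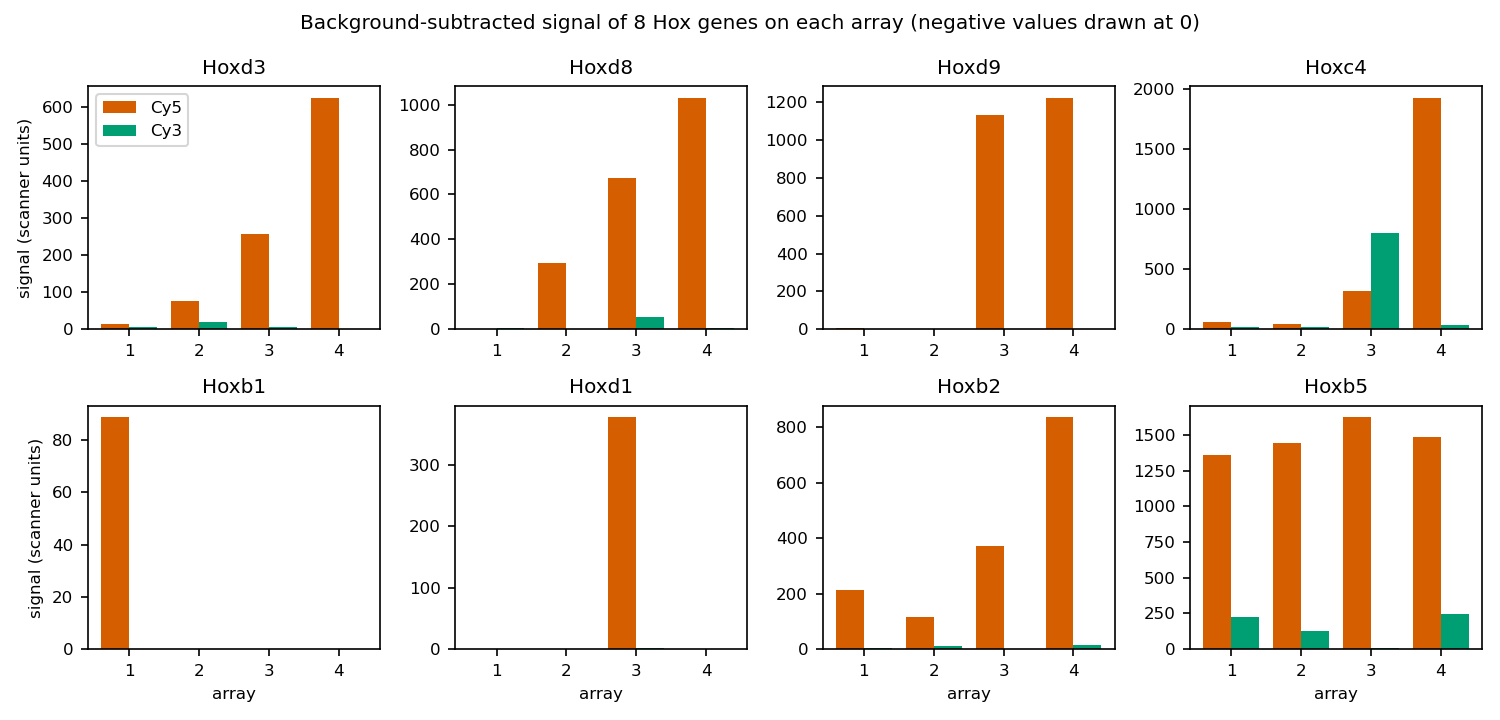
Bars give the background-subtracted signal (scanner units, each panel on its own scale, negative values drawn at 0) in Cy5 and in Cy3 on arrays 1 to 4 for 8 Hox genes. Hoxd3, Hoxd8 and Hoxd9 are bright in Cy5 on arrays 3 and 4, Hoxb1 on array 1, and Hoxd1 on array 3, while Hoxb5 is even at 1359 to 1623.

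Marks followed the base composition of the probes. Hox probes had a median GC content of 39.2%, beside 40% for Olfr probes and 43.3% for all probes. Of the 11 Hox probes with a GC content of 35% or less, 5 were detected in Cy5 (45.5%) and 2 in Cy3 (18.2%), beside 14.6% and 8.86% of Olfr probes and 58.5% and 53.2% of all probes. Of the 5 Hox probes with over 45% GC, 4 were detected in both channels, beside 89.9% and 88.4% of Olfr probes. Within 40 to 45% GC, 9 of 15 Hox probes were detected in Cy5 (60%) and 8 in Cy3 (53.3%), beside 64.7% and 54.9% of Olfr probes. At this and at higher GC content the Hox share thus lay below that of Olfr probes in both channels, and at lower GC content above it, a difference that was not tested. Hoxd3, Hoxd9 and Hoxb5 have a GC content of 45%, and Hoxd8 of 35%.

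**Figure D5:**
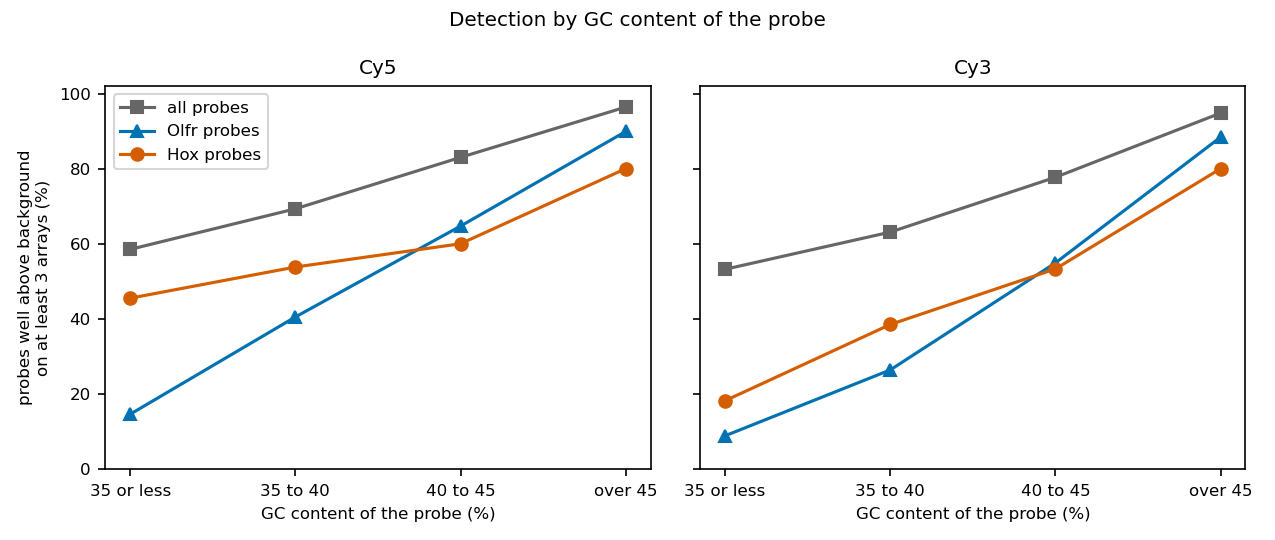
Points give the percent of probes well above background on at least 3 arrays, in Cy5 on the left and in Cy3 on the right, against the GC content of the probe in 4 ranges, for Hox, Olfr and all probes. Shares rise with GC content in all 3 sets, and in Cy5 at 35% GC or less Hox probes stand at 45.5% and Olfr probes at 14.6%.

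Runs of G moved with the marks as well. All 4 Hox probes with a run of at least 4 G, named above, were marked in both channels on all arrays, beside 11 of the 40 Hox probes without one (27.5%). The same comparison gave 76% against 60.2% over all probes and 45.1% against 26.8% over Olfr probes. The part of base composition in the Hox signals was not tested.

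Hox proteins bind DNA together with cofactors of the Pbx, Meis and Pknox families. Counts in the lists that follow stand beside 1.64% of all features called (0.997% higher in Cy5 and 0.644% higher in Cy3), 10.1% and 8.87% at an unadjusted p under 0.05, and 81.5% and 77.3% of named genes detected in Cy5 and Cy3. Of 9 cofactor genes, limma called 2 higher in Cy5 and 0 higher in Cy3, and their median ratio was 0.72. At an unadjusted p under 0.05, 4 of the 9 were higher in Cy5 and 1 in Cy3. Meis2 gave 4190, 2560, 5080 and 6190 in Cy5 and 23.6, 1.46, 41.4 and 134 in Cy3, a ratio of 4.35 ± 0.208 (SE, n = 4; limma adjusted p = 0.00579). In Cy3 Meis2 was marked on 2 of 4 arrays and so was not detected by the rule above, and the size of its ratio rests on Cy3 signal near background. Meis1 gave 681, 365, 999 and 679 in Cy5 and 26.4, 36.9, 39.8 and 39.4 in Cy3, a ratio of 1.90 ± 0.229 (SE, n = 4; limma adjusted p = 0.0321). For both genes the raw signals of the channels did not overlap. Raw signals are not normalized between the dyes, and those of Hoxa6 and Hoxc8 did not overlap either, at ratios near 0. Meis3 lay at 1.05 (limma adjusted p = 0.117) and did not pass the threshold. Pbx3 went the other way, at -1.58 (limma adjusted p = 0.0656) and below 0 on every array, also short of the threshold. Pbx2 and Pbx4 had mean ratios below 0 as well.

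Polycomb proteins keep Hox clusters silent and Trithorax proteins keep them active. Of 24 such genes, 21 were detected in Cy5 and 22 in Cy3, and limma called 0 of the 22 tested, with 0 higher in Cy5 and 1 higher in Cy3 at an unadjusted p under 0.05. Their median ratio was -0.32. Ezh2, the methyltransferase of Polycomb complex PRC2, was marked on 2 arrays in each channel, with signals of 17.2 to 53.6 in Cy5 and 14.7 to 33.1 in Cy3. Ezh1, its paralogue, was marked in both channels on all arrays, at a ratio of -0.39 (limma adjusted p = 0.686).

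Genes and RNAs that lie in or beside the clusters were read the same way. Of 13 on the array, 10 were tested, and limma called Skap2, a gene beside the Hoxa cluster, at 1.61 ± 0.0599 (SE, n = 4; limma adjusted p = 0.0212), higher in Cy5. Evx2, the homeobox gene beside Hoxd13, was marked in both channels on all arrays at both of its probes, with ratios of 0.06 and 0.37, whereas Evx1, beside Hoxa13, was marked on none. Hoxa11as, an RNA antisense to Hoxa11, was marked in both channels on all arrays, at 592 to 694 in Cy5 and 234 to 272 in Cy3, while Hoxa11 itself was not detected. Hotair, an RNA of the Hoxc cluster, had 5 probes, of which 2 were marked on no array, 1 on all arrays in both channels, and 2 in between.

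The homeobox genes of the ParaHox cluster and their Cdx relatives act in the gut, the pancreas and the nervous system. Of 6, 4 were detected in Cy5 and 3 in Cy3, and limma called 0 of the 4 tested, with 0 higher in Cy5 and 1 higher in Cy3 at an unadjusted p under 0.05. Of 24 homeobox genes of the head, 19 were detected in Cy5 (79.2%) and 20 in Cy3 (83.3%), close to the shares of all named genes. Of the 21 tested, 0 were called higher in Cy5 and 3 higher in Cy3, all regulators of head mesenchyme. Among these were Alx1 at -2.86 ± 0.417 (SE, n = 4; limma adjusted p = 0.0321) and Lhx8 at -2.80 ± 0.376 (SE, n = 4; limma adjusted p = 0.0279). At an unadjusted p under 0.05, 4 of the 21 were higher in Cy5 and 10 in Cy3.

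Markers of other cell types also differed between the channels, in both directions. Sums of signal over a list are not normalized between the dyes, and a single bright gene can carry them. Of 12 macrophage and leukocyte markers 2 were called, both higher in Cy5, namely Lyz2 at 4.42 (limma adjusted p = 0.0278) and Laptm5 at 2.93 (limma adjusted p = 0.0187), both typical of myeloid cells. Their sums were 203000 to 353000 in Cy5 and 44900 to 59600 in Cy3. Itgam alone gave 137000 to 149000 and 27900 to 40100 of these, with a normalized ratio of 0.17. Of 6 fibroblast and periosteum markers 4 were called, and of 6 cartilage markers 3, all higher in Cy5. Postn, of the fibroblast list, went the other way at -1.62 (limma adjusted p = 0.0956), below 0 on every array. Fibroblast sums were 176000 to 253000 in Cy5 and 22900 to 58400 in Cy3, and cartilage sums 65100 to 304000 and 1480 to 3470. In Cy5, Dcn alone gave 113000 to 153000 of the fibroblast sums and Comp 53400 to 233000 of the cartilage sums. In Cy3, Postn alone gave 17400 to 40200 of the fibroblast sums. Of 6 dental epithelium markers 2 were called, both higher in Cy3, namely Odam at -5.00 (limma adjusted p = 0.00617) and Ambn at -3.05 (limma adjusted p = 0.0233), proteins of enamel-forming cells, with sums of 1920 to 2120 in Cy5 and 3560 to 9320 in Cy3.

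Of 5 skeletal muscle markers 3 were tested and 0 called. Their sums were 12400 to 18500 in Cy5 and 6030 to 11800 in Cy3. Acta1 alone gave 6540 to 12200 and 3280 to 8330 of these, and Myod1 5360 to 5700 and 2700 to 3460. The muscle gene Myh1 was marked on no array in either channel. Of 5 lymphoid markers 4 were tested and 0 called, with sums of 808 to 979 in Cy5 and 434 to 4000 in Cy3. Of 12 markers of blood progenitors, granulocytes and red cells, 8 were tested and 0 called, with sums of 2730 to 4480 in Cy5 and 1370 to 3180 in Cy3, and Hbb-bt and Myb were among the markers with no mark on any array in either channel. Of 8 neuron and glia markers 6 were tested and 0 called, with sums of 95300 to 123000 and 24800 to 36900, of which Snap25, at a normalized ratio of 0.17, gave 92000 to 119000 and 23300 to 35100. In Cy3 Syt1 was marked on no array. Of 7 endothelial markers 5 were tested and 0 called, with sums of 5390 to 6330 and 2310 to 4690, and Tie1 was marked on no array. The part of these cell types in the Hox values was not tested.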

How the data were processed

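Per the file headers, the authors extracted each spot's intensity from the scans with the software Agilent Feature Extraction (version 10.7.3.1), on a design built on mm9. The deposited intensities are the mean spot signal, the median local background, and the background-subtracted and dye-normalized signals. The same deposited files hold the log10 ratio of the processed intensities, and other flags, numbers of 0 or 1 that mark outlier, saturated and bright spots. The deposited value table holds log10 ratios. Its steps after scanning are not given in the sources used here. Labelling started from 250 ng of cDNA per channel, as the labels state.

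From the intensities, background was corrected by normexp (offset 50) and arrays were normalized by loess in limma 3.58.1 (R 4.3.3). The 3671 control spots had weight 0, 949 outlier spot values were set to missing, 0 were saturated, and spots of a probe were averaged. Of 55681 probes, 44233 were kept for a mark of bright signal in at least 1 of the channels on at least 3 arrays. The brightest probe stood for a gene, which gave 37406 features, 18733 of them named genes, named through RefSeq (GRCm38.p6, for names alone). The mean log2 ratio was tested with lmFit and eBayes, in a two-sided test, and p-values were adjusted over all features by the Benjamini-Hochberg method (threshold 0.05). The script was tested on simulated data. Shares of detected members carry no test.

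Members, gene lists and settings were chosen with earlier results of these data known. Per-array values were given for each detected Hox gene and, per cluster, for the undetected gene with the highest signal, and for up to 4 called and 2 bright uncalled genes of a list. Hoxb1, Hoxd1, Hoxa11, Ezh1, Ezh2, Evx1, Evx2, Hoxa11as and Hotair were named after their values were seen. Other settings tried were the background correction, normalization, filter, probe rule, variance prior, detection rule and leaving out each array. Some items are not reported here.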

Additional observations from a re-analysis of the deposited data

Results flagged for a closer look

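Of 44 Hox probes, 3 had 1 array whose log2 ratio stood far from the other 3, by the gap to its nearest neighbour against the whole range of the 4 arrays. Chance gives about 1 in 20 for such a check. Hoxa3 had a ratio of 1.7 on array 4, and 0.32 to 0.48 on the others. Hoxb1 had 0.97 on array 1, and -0.06 to 0.01 on the others. Hoxd1 had 1.66 on array 3, and -0.01 to 0.07 on the others. In all 3 cases the array that stood apart lay higher in Cy5.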

How the results depend on the processing

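limma called 0 Hox genes with all arrays in the setting described, and 1 with median centring (Hoxb5, 2.22), 1 with scale normalization between arrays (Hoxb5, 1.95), 1 with the software's log ratio (Hoxb2, 3.86, adjusted p = 0.0376) and 1 with the deposited value table (Hoxb2, 3.86, adjusted p = 0.0377), both without a background offset. Leaving out each array in turn gave 0 to 0 calls, but without array 1 or array 2 limma called 0 of all features, 241 without array 3 and 35 without array 4, so these counts say nothing about stability. Calls over all features ranged from 403 with the software's ratio to 2509 with median centring. The median ratio over Hox genes, 0.15, was 0.018 with median centring, 0.35 with the software's ratio and with the value table, 0.25 over probes past the filter, 0.017 over probes marked in both channels on all arrays, and 0.09 to 0.19 without each array. Of 336 single gene ratios under other settings, 324 kept their direction and side of the threshold, 4 are the Hoxb2 and Hoxb5 calls above, and 8, of 6 genes past the threshold in no setting, changed sign. With 1 array left out, Hoxc4 ran from -0.741 (without array 4) to 1.17 (without array 3), Hoxc12 from -0.854 to 0.013, Hoxa9 from -0.512 to 0.005, Hoxd11 from -0.168 to 0.122 and Hoxa7 from -0.068 to 0.133. Hoxc8 was 0.018 with median centring.

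Detection in Cy3 depended on the rule. With signal above the 95th percentile of negative control spots, 33 probes and 31 genes were detected there, beside 35 and 32 in Cy5. With signal above the highest negative control spot, spots flagged as outliers left out, 29 probes and 27 genes were detected in Cy3, beside 34 and 32 in Cy5. Olfr probes then reached 69.3% and 65% in Cy3. Detection on all 3 arrays left after leaving out 1 gave 21 to 23 probes and 19 to 21 genes in Cy5, and 15 to 17 probes and 14 to 15 genes in Cy3. The limma test of the mean ratio was itself a paired analysis, because each ratio is taken between the 2 channels of an array. No further pairing was made, because there is a single group of arrays. The number of arrays, and signals near background in Cy3, limit the precision.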
